A study of Mus musculus with 3 samples.

Results

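The genes described here are the intraflagellar transport (IFT), BBSome and transition zone genes, 44 cilium genes chosen by symbol and not by any measured value. Of these, 43 had a row among the 27998 genes counted, and Tctn2 was not analysed here. They were followed through single-cell libraries from adult mice (n = 5 per the labels), whose subventricular zone (SVZ), a stem cell layer that lines the lateral ventricles of the brain, was dissociated and sorted. All mice carried the transgenes aSMACreERt2::Rosa26-tdTomato and B6;129S-Sox2tm2Hoch/J on a mixed background given as C57/Bl6(3/4) crossed with 129S1SvlmJ(1/4). The Cre recombinase is driven by the promoter of smooth muscle actin, works only with tamoxifen and turns on tdTomato, and GFP stands under the control of Sox2, so the sort holds Sox2-GFP cells and not the whole tissue. One library came from 1200 sorted cells positive for both tdTomato and GFP. The other two held tdTomato-negative, GFP-positive cells (1200 sorted for library 1 and 6000 for library 2). No tamoxifen dose, time or age in numbers is given in the sources used here. The labels do not tie libraries to animals, so the p-values below do not measure a spread between known animals. In comparisons of cell classes they measure how far class differences vary over these libraries. In comparisons of sort gates they measure the spread between libraries. Either spread may be technical.

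A cilium is built and kept by trains of proteins that run along its microtubules. The IFT-B complex rides outward on the motor kinesin-2, and the IFT-A complex is needed for the return on the motor dynein-2. The BBSome is an adaptor that loads membrane proteins on the trains, and the transition zone is the gate at the base of the cilium. The same machinery serves the single primary cilium that astrocytes, neural stem cells and their progeny carry, and the many motile cilia with which an ependymal cell moves cerebrospinal fluid. The question put to these data was how far its transcripts differ between multiciliated ependymal cells and singly ciliated cells of the same tissue.

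The libraries held 259 to 1127 barcodes and 788344 to 3593633 unique molecular identifiers (UMIs, 1 per captured transcript). After filtering, 252 tdTomato-positive cells and 256 and 1121 tdTomato-negative cells were kept, with a median of 2401 to 2639.5 UMIs per cell. Mitochondrial UMIs made up a median of 8.27% in tdTomato-positive cells and 3.22% and 3.38% in the others. The tdTomato-positive library shared 0 and 1 cell barcodes with the other libraries, and those shared 2 with each other. Cells were clustered without the 44 genes, and clusters were named from markers. The ependymal-like class had 234 cells (177 tdTomato-positive, 12 and 45 tdTomato-negative) with Ccdc153, Rarres2 and Tmem212 as leading genes and all 15 ependymal markers detected. The singly ciliated classes were 278 astrocyte-like cells, which can include quiescent stem cells, 144 transit-amplifying-like cells and 213 neuroblast-like cells. The transit-amplifying-like cells are a dividing class that also held neuroblast markers. That name follows the cell type. Cilia were not measured, so how many cells of each class carried one, the dividing class included, is not known. 3 further clusters stayed unnamed and are called by number and a leading gene.

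Shared promoter letters were looked at first. RFX transcription factors, which switch on cilium genes, bind a palindromic motif called the X-box, and 1 arm of it reads GTTGCC. RefSeq promoters (GRCm38.p6, 250 bases before to 50 after the start) were matched by symbol for 38 of the 44 genes. GTTGCC was found on either strand in 19 of the 38 genes (50.0%), against 14.1% of all 27025 genes with a promoter. The same letters stood in 25 of 53 genes of the motile axoneme (47.2%) and in 13 of 38 other genes of the same complexes (34.2%). The longer GTTNCCNNGGNAAC, which can overlap GTTGCC, stood in 4 of the 38 genes (10.5%: Bbs7, Mks1, Tctn1 and Ttc26), against 0.529% of all genes. The form GTTNCCATNGNAAC was in 0 of the 38, against 0.300% of all genes, and GTTGCCAT in 1, against 1.54%. The forkhead letters GTAAACA and ATAAACA were in 0 and 1, against 4.05% and 5.28% of all genes. These patterns were searched one after another, the median GC content of the promoters was 59.0% for the 38 genes and 52.7% for all, and a match is a description of letters and not a bound site. The 150 bases before the start follow for 4 of the genes that hold the motif there. These 4 were called higher in ependymal-like cells in at least 1 fit. Kif3a, which holds GTTGCC, follows too. It was not called against the 3 singly ciliated classes but was called higher than in astrocyte-like cells alone. Ift27 was also called and holds GTTGCC in these bases. Ift140 and Traf3ip1 hold it and were not called against the 3 classes. The bases of Ift27, Ift140 and Traf3ip1 are not shown. Capitals mark GTTGCC or the 14-letter match.

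Ift57 (chr16:49699144-49699293, plus strand): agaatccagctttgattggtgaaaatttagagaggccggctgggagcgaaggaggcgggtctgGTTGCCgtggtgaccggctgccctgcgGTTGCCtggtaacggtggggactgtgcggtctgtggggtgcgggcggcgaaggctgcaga
Ttc26 (chr6:38381374-38381523, plus strand): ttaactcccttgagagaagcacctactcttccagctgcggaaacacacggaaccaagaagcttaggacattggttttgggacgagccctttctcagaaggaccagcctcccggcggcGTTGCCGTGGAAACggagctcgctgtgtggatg
Mks1 (chr11:87853065-87853214, plus strand): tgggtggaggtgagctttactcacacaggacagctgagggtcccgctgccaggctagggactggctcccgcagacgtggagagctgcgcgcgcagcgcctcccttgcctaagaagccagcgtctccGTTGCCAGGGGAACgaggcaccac
Bbs7 (chr3:36613390-36613539, minus strand): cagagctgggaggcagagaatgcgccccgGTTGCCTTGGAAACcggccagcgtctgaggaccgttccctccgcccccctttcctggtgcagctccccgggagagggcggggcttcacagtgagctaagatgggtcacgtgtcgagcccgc
Kif3a (chr11:53567219-53567368, plus strand): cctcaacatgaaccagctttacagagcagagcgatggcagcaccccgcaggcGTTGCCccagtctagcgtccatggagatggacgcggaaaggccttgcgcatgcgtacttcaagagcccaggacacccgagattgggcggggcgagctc

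Ift57 held 2 copies of GTTGCC, at 87 and 60 bases before the start, which the file counts as -87 and -60. In Ttc26, Mks1 and Bbs7 the capitals are the 14-letter match, and it begins with GTTGCC in each. Ift43, Ift20, Ift22 and Arl3, whose levels are given below, had neither pattern in the searched bases.

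Summed over the 43 genes, ependymal-like cells held several times the level of every other class. The sum was 4687 UMIs per 1000000 UMIs of the class (CPM) for tdTomato-positive cells and, for tdTomato-negative libraries 1 and 2, 4916 and 4798 CPM, a mean of 4800 ± 115 (SD, n = 3). Astrocyte-like cells had 1275, 1547 and 1233 CPM, transit-amplifying-like cells 1520 and 1419 CPM, and neuroblast-like cells 1361 and 1431 CPM. The lowest ependymal-like library therefore stood above the highest sum of any other class, and the 3 singly ciliated classes overlapped one another. The unnamed cluster 9 (led by Ung and Mcm2) had 1349 and 1504 CPM, cluster 3 (Meg3) 1275 and 1396 CPM, and cluster 8 (Prokr2) 1450 and 1508 CPM. Oligodendrocyte precursor-like cells had 1394 and 1265 CPM and oligodendrocyte-like cells 1150 and 948 CPM. The lowest sums were those of endothelial-like cells (787 CPM) and microglia-like cells (803 CPM), both present in the tdTomato-positive library only.

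**Figure D1:**
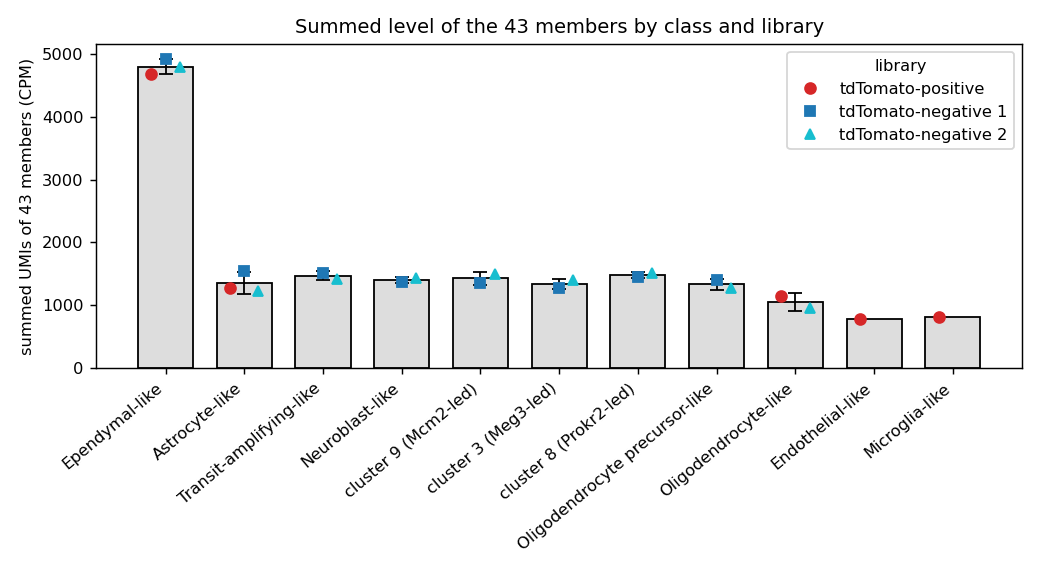
Summed level of the 43 genes in CPM (y axis) for each class (x axis); bars are means over libraries, error bars the SD where a class has more than 1 library, and symbols the single libraries. The 3 ependymal-like libraries sit between 4687 and 4916 CPM, and all other sums are at or below 1547 CPM.

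Per cell the picture was different, since the classes differ in depth. As a ratio, the gap to transit-amplifying-like cells was smaller than in CPM. The gaps to astrocyte-like and neuroblast-like cells were larger. An ependymal-like cell held a mean of 15.6, 18.4 and 18.5 UMIs of these genes in the 3 libraries, with a median of 12 of the 43 genes detected. A transit-amplifying-like cell, with a median of 7181 UMIs in all against 3632.5 for an ependymal-like cell, held 14.0 and 10.5. An astrocyte-like cell held 2.56, 3.36 and 3.04, and a neuroblast-like cell 4.49 and 3.83. All folds below are on the CPM scale, relative to the total RNA of the class.

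Other signs moved with the same split. The median mitochondrial share was 8.64% in ependymal-like cells, 4.86% in astrocyte-like cells, 3.07% in transit-amplifying-like cells and 3.19% in neuroblast-like cells. With cells limited to at most 10% mitochondrial UMIs and at least 500 genes, a fit on 13 sums in place of 20 called 27 of 32 tested genes higher in ependymal-like cells, against 21.4% of all 3677 genes tested there. In the tdTomato-positive library, where 70.2% of kept cells were ependymal-like, the other classes also held ependymal marker UMIs: the 15 markers summed to 1555 CPM in its astrocyte-like cells, against 470 and 348 CPM in those of the tdTomato-negative libraries, and to 18708 to 20866 CPM in ependymal-like cells. The part of this in the levels of single genes was not tested. Without that library 22 of 25 tested genes were called higher, against 21.9% of all 2805.

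Fitted over all classes, with library as a block, 23 of the 43 genes were higher in ependymal-like cells than in the mean of the 3 singly ciliated classes and 0 were lower (edgeR quasi-likelihood test, Benjamini-Hochberg adjusted p under 0.05). Another 3 were tested and not called, and 17 did not pass the filter on low counts. Over all 2825 genes tested, 27.6% were called higher and 14.6% lower. The median log2 fold change of the 26 tested was 2.31, against 0.01 for all genes. Since a gene could pass the filter through its ependymal-like sums, the fit was repeated with no count filter. Then 30 of the 43 were called higher and 0 lower, against 12.5% and 4.99% of 8502 genes, and all 43 had a positive log2 fold change, between 0.05 and 3.73 with a median of 1.97. The clusters were drawn from other genes of the same cells, among them cilium markers such as Foxj1, so these p-values describe the classes and are not independent of how they were made. Without tdTomato-negative library 2, which holds most singly ciliated cells, 13 of 25 tested were called higher, against 18.8% of 2234 genes.

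**Figure D2:**
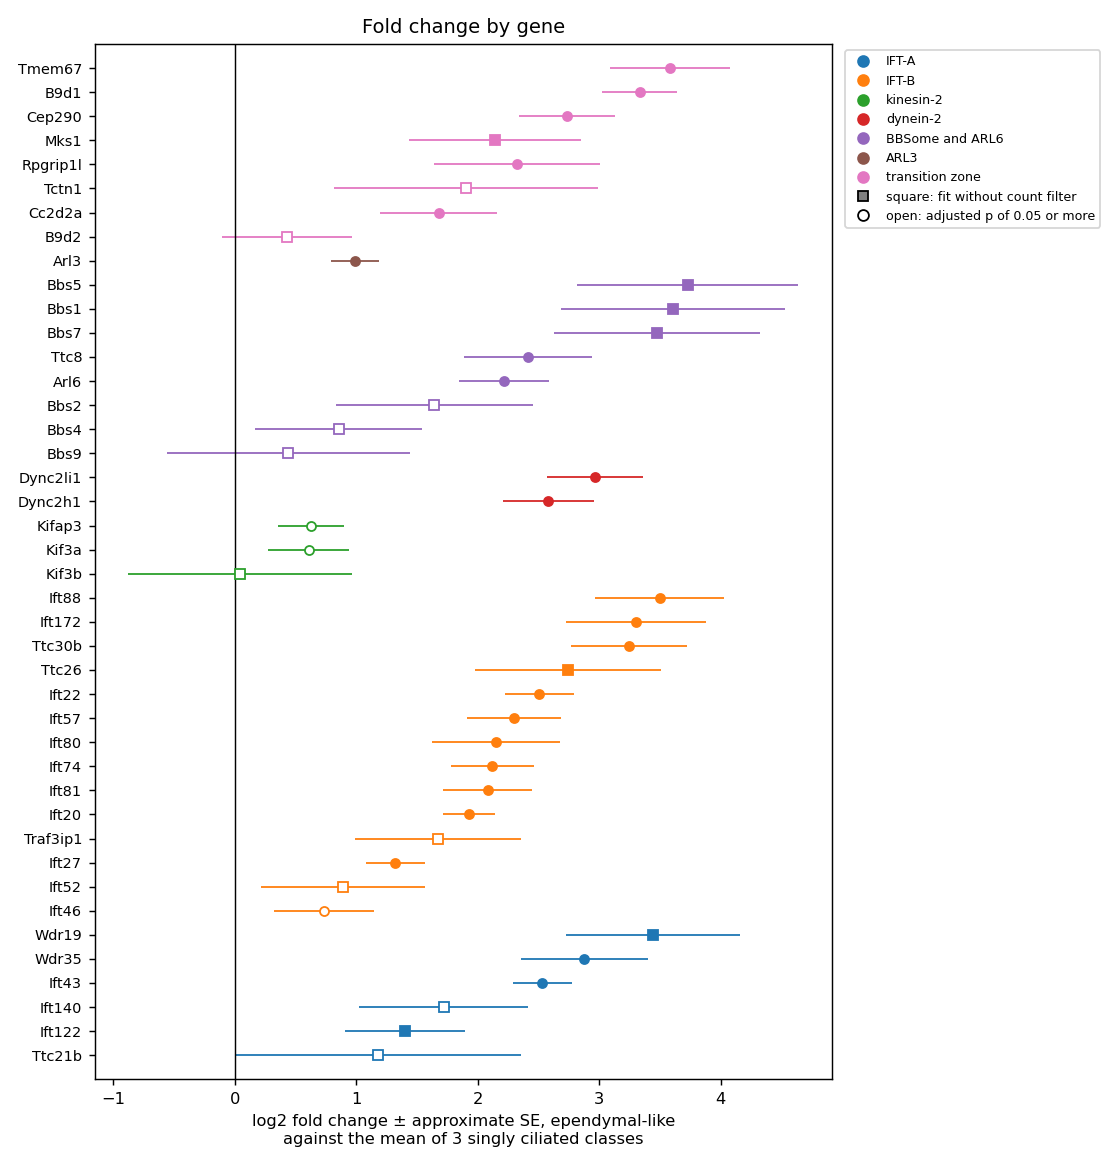
Log2 fold change of 42 of the 43 genes (x axis) with its approximate standard error, coloured by role; circles come from the fit with the count filter, squares from the fit without it, and open symbols were not called. All symbols lie to the right of 0, and the 3 kinesin-2 genes are among those nearest to it.

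The separation was also counted without a model. For 28 of the 43 genes, all 3 ependymal-like sums lay above all 7 sums of the singly ciliated classes, against 9.73% of the 8128 genes with a UMI in these sums. The 15 genes whose groups overlapped were Ttc21b, Ift46, Ift52, Traf3ip1, Kif3a, Kif3b, Kifap3, Bbs4, Bbs7, Bbs9, Tctn1, Cc2d2a, Cep290, Mks1 and B9d2. Within the tdTomato-positive library, 40 of 43 were higher in ependymal-like than in astrocyte-like cells. The ependymal-like sum there held 588250 UMIs and the astrocyte-like sum 32145. A gene without astrocyte-like UMIs thus counted as higher from a single ependymal-like UMI. Within tdTomato-negative library 1, 40 were higher than in astrocyte-like, 40 than in transit-amplifying-like and 38 than in neuroblast-like cells. In library 2 these counts were 42, 42 and 38, and the 5 genes not higher than in its neuroblast-like cells were Ift46, Kif3a, Kif3b, Kifap3 and B9d2. The share of all genes going the same way was not counted for any library, so these counts have no scale beside them. Values below are given in the order tdTomato-positive, tdTomato-negative 1, tdTomato-negative 2. A single UMI was worth 31.1 CPM in the smallest astrocyte-like sum, that of the tdTomato-positive library, and 22.2 CPM in the smallest ependymal-like sum, that of tdTomato-negative library 1, so low values move in such steps.

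**Figure D3:**
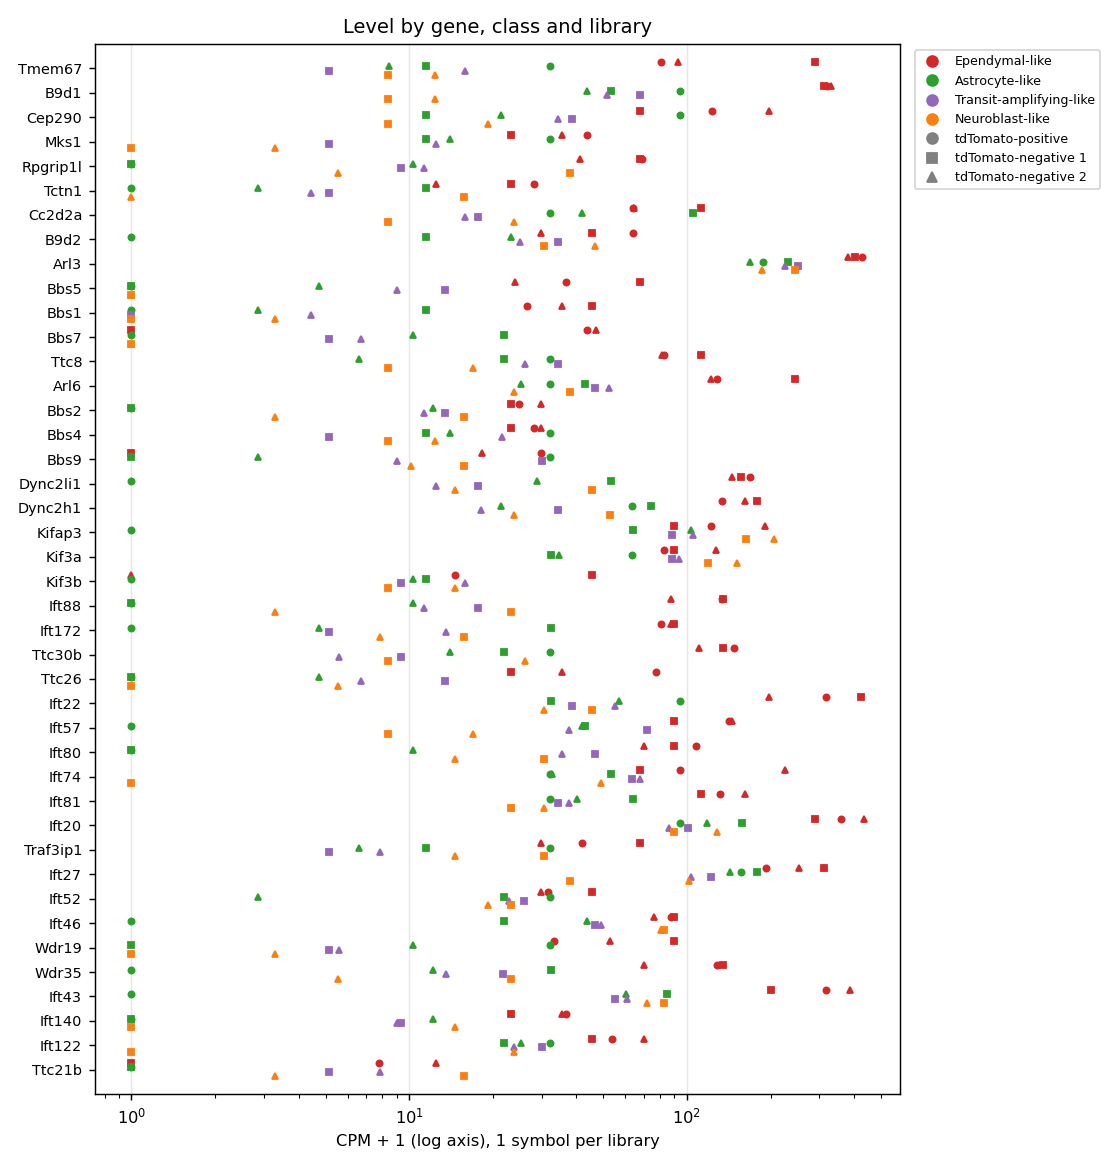
Level of 42 of the 43 genes (CPM + 1, log axis) in ependymal-like and the 3 singly ciliated classes; each symbol is 1 library. For Arl3 the ependymal-like libraries sit between 380 and 425 CPM and the singly ciliated sums between 167 and 250 CPM, while for Kifap3 and Kif3a the neuroblast-like symbols lie among or beyond the ependymal-like ones.

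Among the IFT-A genes, Ift43, Wdr35, Wdr19 and Ift122 were called higher in ependymal-like cells, the last 2 in the fit with no count filter. Ift43 (chr12:86082541-86162459, GRCm38), a peripheral subunit, had 316, 200 and 385 CPM in ependymal-like cells and 0 to 83.6 CPM in the 7 singly ciliated sums. The groups did not overlap, and the log2 fold change was 2.53 ± 0.24 (approximate SE; edgeR adjusted p = 2.98e-24). Wdr35 (chr12:8973892-9028847), also named IFT121, had 127, 133 and 69.0 CPM, against 0 to 31.3 CPM. It did not overlap either and gave 2.88 ± 0.52 (edgeR adjusted p = 1.99e-07). Ift122 (chr6:115853470-115926699), a core subunit, had 52.7, 44.5 and 69.0 CPM, and the highest singly ciliated value was 31.1 CPM, in the tdTomato-positive astrocyte-like cells. Its log2 fold change with no count filter was 1.40 ± 0.49 (edgeR adjusted p = 0.029). Wdr19 had 32.3, 89.0 and 51.8 CPM against at most 31.1 CPM, a log2 fold change of 3.44 ± 0.71 in the same fit. Ift140, a core subunit, had 35.7, 22.2 and 34.5 CPM against at most 13.7 CPM and was not called (1.72 ± 0.69, edgeR adjusted p = 0.0699). Ttc21b, the sixth gene of the complex, rested on 6 UMIs in ependymal-like cells and could not be resolved at this depth (1.18 ± 1.18).

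Of the 14 IFT-B genes, 10 passed both the filter and the test and an eleventh, Ttc26, was called with no count filter. Ift20 (chr11:78536361-78541737), the subunit also found at the Golgi, had 357, 289 and 431 CPM in ependymal-like cells. The singly ciliated sums ran from 84.8 CPM in transit-amplifying-like cells to 157 CPM in astrocyte-like cells. The groups were apart, with a log2 fold change of 1.93 ± 0.21 (edgeR adjusted p = 1.89e-18). Ift22 (chr5:136908150-136915404), a small GTPase, had 316, 423 and 196 CPM against 29.6 to 93.3 CPM, and its log2 fold change was 2.51 ± 0.28 (edgeR adjusted p = 6.34e-18). The ependymal-like libraries of Ift22 spread over more than the whole singly ciliated range, and still all 3 were higher. Ift27 (chr15:78159463-78174107), the other small GTPase of the complex, had 192, 311 and 253 CPM, and its highest singly ciliated sum, 178 CPM in astrocyte-like cells, came close to the lowest of these. Its log2 fold change of 1.32 ± 0.24 (edgeR adjusted p = 3.69e-07) was the smallest among the IFT-B genes called.

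The core IFT-B genes Ift88 and Ttc30b and the peripheral Ift172 showed larger folds from low singly ciliated levels. Ift88 had 133, 133 and 86.3 CPM in ependymal-like cells and at most 22.2 CPM elsewhere in the singly ciliated sums (log2 fold change 3.50 ± 0.53, edgeR adjusted p = 3.56e-10). Ift172 had 79.9, 89.0 and 86.3 CPM against at most 31.3 CPM (3.30 ± 0.57), and Ttc30b 146, 133 and 109 CPM against at most 31.1 CPM (3.25 ± 0.48). These were the 3 largest folds of the complex. Ttc30b has close copies in the genome, Ttc30a1 with 40 UMIs and Ttc30a2 with 1 UMI in kept cells beside its own 162, so its value is uncertain where reads could go to either copy. Ift57, Ift74, Ift80 and Ift81 lay between 2.08 and 2.30 on the log2 scale, none with overlapping groups. Ift74 had the widest ependymal-like spread of these, 93.5, 66.7 and 224 CPM. The lowest of these values lay above its highest singly ciliated sum, 66.5 CPM, by less than 1 UMI is worth. Ift46 was tested and not called: 86.7, 89.0 and 74.8 CPM in ependymal-like cells overlapped with up to 81.4 CPM in neuroblast-like cells (0.74 ± 0.41, edgeR adjusted p = 0.141). Ift52 (0.89 ± 0.68) and Traf3ip1 (1.67 ± 0.68) were not called with no count filter, from 25 and 32 ependymal-like UMIs.

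The kinesin-2 genes, which encode the outward motor, did not pass the test. Kif3a (chr11:53567379-53601967), a motor subunit, had 81.6, 89.0 and 127 CPM in ependymal-like cells. Neuroblast-like cells had 118 and 150 CPM, transit-amplifying-like cells 87.4 and 92.8 CPM, and astrocyte-like cells 62.2, 31.3 and 33.5 CPM. The ependymal-like values thus overlapped with transit-amplifying-like and neuroblast-like values and lay above all 3 astrocyte-like ones. Against the mean of the 3 classes the log2 fold change was 0.61 ± 0.33, with an approximate 95% interval from -0.04 to 1.26 (edgeR adjusted p = 0.133). Kifap3 (chr1:163779583-163917109), the adaptor that joins the motor to its cargo, had 121, 89.0 and 190 CPM in ependymal-like cells and 163 and 205 CPM in neuroblast-like cells. Its astrocyte-like values were 0, 62.7 and 102 CPM, and the log2 fold change against the 3 classes was 0.63 ± 0.27, with an interval from 0.09 to 1.16 (edgeR adjusted p = 0.0518). Kif3b (chr2:153291413-153333390), the partner motor subunit, had 13.6, 44.5 and 0 CPM from 10 UMIs and could not be resolved (0.05 ± 0.92). These motors also carry cargo along microtubules outside cilia, in axons among other places.

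Both dynein-2 genes were called. Dync2h1 (chr9:6928503-7184446), the heavy chain of the return motor, had 133, 178 and 161 CPM in ependymal-like cells and 17.2 to 73.1 CPM in the singly ciliated sums. Its groups did not overlap and its log2 fold change was 2.58 ± 0.38 (edgeR adjusted p = 5.57e-11). Dync2li1 (chr17:84626496-84655588), the light intermediate chain, had 168, 156 and 144 CPM against 0 to 52.2 CPM, likewise without overlap (2.96 ± 0.39, edgeR adjusted p = 5.36e-13). Whether the folds of the return motor differ from those of the outward motor was not tested.

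The BBSome genes were sparsely counted, and only Ttc8 and Arl6 passed the filter. Arl6 (chr16:59612949-59639391), the GTPase that brings the BBSome to the membrane, had 127, 245 and 121 CPM in ependymal-like cells against 22.8 to 51.6 CPM. No values overlapped, and the log2 fold change was 2.22 ± 0.37 (edgeR adjusted p = 1.80e-08). Ttc8 (chr12:98920574-98983238), a BBSome subunit also named BBS8, had 81.6, 111 and 80.5 CPM against 5.58 to 33.3 CPM (2.41 ± 0.53, edgeR adjusted p = 2.41e-05). With no count filter Bbs5 (3.73 ± 0.91), Bbs1 (3.61 ± 0.92) and Bbs7 (3.47 ± 0.85) were called as well. They rested on 28, 23 and 33 ependymal-like UMIs, and Bbs7 was at 0 in the 12 ependymal-like cells of tdTomato-negative library 1. Bbs4 (chr9:59321990-59353508) had 27.2, 22.2 and 28.8 CPM against 4.16 to 31.1 CPM, which overlapped (0.85 ± 0.68, not called). Bbs2 (1.64 ± 0.81) and Bbs9 (0.44 ± 1.00) were not called either.

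The GTPase ARL3, which releases lipid-modified cargo inside the cilium, was called. Arl3 (chr19:46531096-46573198) had 425, 400 and 380 CPM in ependymal-like cells, and 187, 230 and 167 CPM in astrocyte-like cells. Transit-amplifying-like cells had 250 and 224 CPM and neuroblast-like cells 244 and 185 CPM. The ependymal-like libraries stood clear of the rest, although the log2 fold change of 0.99 ± 0.20 (edgeR adjusted p = 4.11e-06) was the smallest among the 23 genes called.

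At the transition zone, B9d1, Tmem67, Cep290, Rpgrip1l and Cc2d2a were called, and Mks1 with no count filter. B9d1 (chr11:61505144-61512931), a B9-domain protein of the MKS complex, had 320, 311 and 328 CPM in ependymal-like cells. The singly ciliated sums ran from 7.40 CPM in neuroblast-like cells to 93.3 CPM in the tdTomato-positive astrocyte-like cells. The groups were far apart and the log2 fold change was 3.33 ± 0.31 (edgeR adjusted p = 5.75e-26). B9d1 had a UMI in 62.8% of ependymal-like cells (exact Clopper-Pearson 95% interval 56.3% to 69.0%), 10.4% of astrocyte-like cells (7.10% to 14.6%) and 2.82% of neuroblast-like cells (1.04% to 6.03%). It had a UMI in 0 of 14 microglia-like cells, which have no motile cilia, and that count allows a share of up to 21.4%. Those cells had a median of 1681 UMIs, against 3632.5 in ependymal-like cells, and are too few to set a background from free RNA, so the astrocyte-like and neuroblast-like shares could not be told apart from it. Thinned to 1000 UMIs per cell, the shares were 31.5%, 4.87% and 1.43%, in the same order. These intervals cover counting error only. For comparison, Kif3a had a UMI in 25.2% of ependymal-like cells (19.8% to 31.3%), and after thinning in 6.02% of these against 9.72% of transit-amplifying-like and 14.8% of neuroblast-like cells.

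Cep290 (chr10:100487558-100574840), a large linker between the membrane and the microtubules, had 122, 66.7 and 196 CPM in ependymal-like cells. Its lowest ependymal-like value lay under the 93.3 CPM of the tdTomato-positive astrocyte-like cells, and the groups overlapped there (2.73 ± 0.39, edgeR adjusted p = 2.72e-11). Tmem67, the receptor-like protein meckelin, had 79.9, 289 and 92.0 CPM, and the highest of these came from the 12 cells of tdTomato-negative library 1 (3.58 ± 0.49, edgeR adjusted p = 3.87e-12). It was the largest fold of the 23, from libraries that differed among themselves by more than the singly ciliated range of 4.16 to 31.1 CPM. Rpgrip1l, a scaffold, had 68.0, 66.7 and 40.3 CPM against at most 37.0 CPM (2.32 ± 0.69). Cc2d2a had 62.9, 111 and 63.3 CPM in ependymal-like and 31.1, 104 and 40.9 CPM in astrocyte-like cells, which overlapped. Its fold against the 3 classes (1.68 ± 0.48, edgeR adjusted p = 0.00197) thus rests on the 7.40 to 22.8 CPM of the transit-amplifying-like and neuroblast-like sums. B9d2 (chr7:25680780-25686558), the partner of B9d1, had 62.9, 44.5 and 28.8 CPM and reached 45.6 CPM in neuroblast-like cells (0.43 ± 0.54, not called). Mks1 gave 2.14 ± 0.71 with no count filter and Tctn1 1.90 ± 1.09, the latter not called.

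Ependymal-like and astrocyte-like cells, the 2 mature glial classes, were also compared alone; that comparison shares its ependymal-like and astrocyte-like sums with the one above. Of the 26 genes tested, 24 were higher in ependymal-like cells and 0 lower, against 22.2% of 2825 genes called higher. Kif3a (1.63 ± 0.43, edgeR adjusted p = 5.76e-04) and Kifap3 (0.94 ± 0.32, edgeR adjusted p = 0.0111) were among those called here. Ift46 (1.13 ± 0.48, edgeR adjusted p = 0.0512) and Cc2d2a (0.48 ± 0.50, edgeR adjusted p = 0.499) were not. The count fell to 9 without tdTomato-negative library 2, against 13.4% of 2234 genes. With no count filter 26 of the 43 were called, against 8.90% of 8502 genes.

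The motile axoneme, the beating microtubule core that primary cilia lack, gave the scale for these folds. Its 64 listed genes summed to 9153, 9832 and 9044 CPM in ependymal-like cells and to 622, 313 and 275 CPM in astrocyte-like cells. With no count filter 59 of the 64 were called higher than in the singly ciliated classes, against 12.5% of all 8502 genes. The median log2 fold change of the 64 was 5.64, against 1.97 for the 43 genes described here and -0.01 for all 8502. Dnah12, a dynein heavy chain of the inner arms, had 476, 512 and 524 CPM in ependymal-like cells and 0 to 7.40 CPM in the singly ciliated sums. Of the 43 transport and gate genes, 42 had UMIs in astrocyte-like cells, and Ttc21b had 0. The axoneme genes had UMIs there too, as their sums above show, and the same count is not given for them. UMIs of a summed class were not told apart from free RNA. The difference between the medians was not tested.

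**Figure D4:**
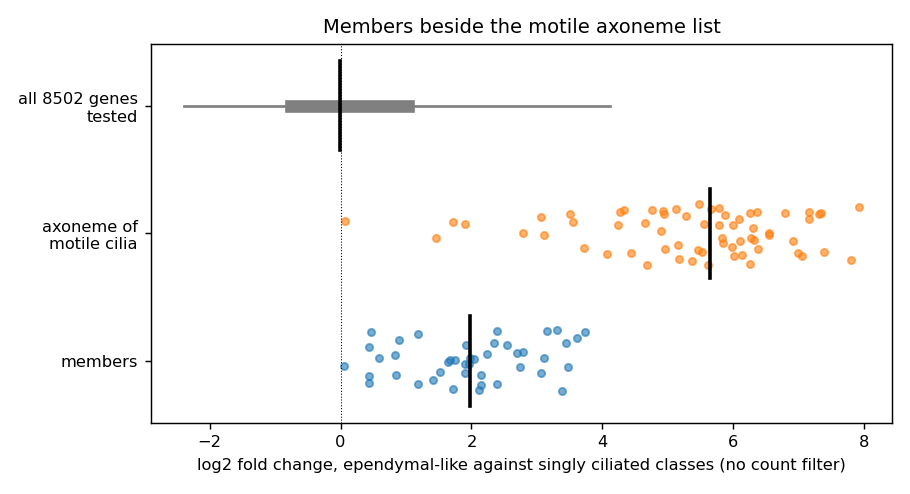
Log2 fold change of ependymal-like against the 3 singly ciliated classes (x axis, fit with no count filter) for the 43 genes and the 64 axoneme genes, 1 point per gene with the median as a bar, and for all 8502 genes as the median, the middle 50% (thick line) and the range from the 5th to the 95th percentile (thin line). The medians are 1.97, 5.64 and -0.01.

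Other genes of the same complexes, from a list of 40, gave a mixed picture: 22 were tested, 10 were higher in ependymal-like cells, 1 was lower and 11 were not called. Of all 2825 genes tested, 27.6% were called higher and 14.6% lower, which also holds for the other lists of this paragraph. A gene could pass the filter through its ependymal-like sums. The regulators and disassembly genes below had only 6 and 7 genes tested, so their counts are not read against these shares. Tmem107, a transition zone membrane protein, had 641, 845 and 759 CPM in ependymal-like cells and 13.7 to 72.2 CPM in the singly ciliated sums (4.34 ± 0.21). The dynein-2 chains Wdr60 (3.08 ± 0.36) and Tctex1d2 (2.80 ± 0.41) were higher as well. Of 18 regulators of multiciliation 6 were tested, and 4 were higher and 1 lower. They included Myb (5.48 ± 0.79), which acts early in multiciliogenesis, Ccdc78 (3.38 ± 0.48), a component of the deuterosome on which centrioles multiply, and Rfx4 (2.58 ± 0.55), while Rfx7 was lower (-2.05 ± 0.74). The astrocyte-like values of Rfx4, 31.1, 146 and 108 CPM, spanned its ependymal-like values of 54.4, 89.0 and 69.0 CPM. Of 15 genes of cilium disassembly 7 were tested and 3 were higher: Pifo (5.94 ± 0.35), Cep97 (1.88 ± 0.60) and Ccp110 (1.38 ± 0.48), the last 2 being caps of the centriole.

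Of 18 genes of Hedgehog signalling, which runs through the primary cilium, only 2 passed the count filter, and against the 3 classes neither was called. With no count filter 17 were tested, and 1 was higher and 1 lower, against 12.5% and 4.99% of 8502 genes. Against astrocyte-like cells both genes that passed the filter were lower in ependymal-like cells, as were 13.9% of all 2825 genes. Ptch1, the Hedgehog receptor, had 40.8, 0 and 34.5 CPM in ependymal-like and 404, 199 and 115 CPM in astrocyte-like cells (-2.58 ± 0.43, edgeR adjusted p = 2.83e-08). Gas1, a co-receptor, had 32.3, 44.5 and 34.5 CPM against 187, 136 and 117 CPM (-1.94 ± 0.44, edgeR adjusted p = 5.29e-05). For both genes all ependymal-like values lay under all astrocyte-like values.

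Among the singly ciliated classes themselves, the transport and gate genes differed little in sum and in few single genes. Between transit-amplifying-like and astrocyte-like cells, 2 of 26 were higher and 4 lower in the dividing class, against 28.0% and 25.5% of all 2825 genes. Ift80, of the IFT-B complex, had 45.8 and 34.4 CPM in transit-amplifying-like cells and 0, 0 and 9.30 CPM in astrocyte-like cells (2.12 ± 0.67, edgeR adjusted p = 0.00369). Kif3a was the other gene higher (1.21 ± 0.35, edgeR adjusted p = 0.00134), and its values stand above. Cc2d2a was lower, with 16.7 and 14.9 CPM against 31.1, 104 and 40.9 CPM (-1.94 ± 0.51, edgeR adjusted p = 4.82e-04). Dync2li1 (-1.40 ± 0.56), Ift27 (-0.68 ± 0.24) and Ift20 (-0.64 ± 0.26) were lower too. For Dync2li1 and Ift20 a single astrocyte-like library lay within or below the transit-amplifying-like range, with 0 CPM and 93.3 CPM in the tdTomato-positive library. With no count filter 1 gene, Cc2d2a, was lower (11.0% of 8502 genes were), and with either tdTomato-negative library left out, which leaves 1 transit-amplifying-like sum, none of the transport and gate genes was called. Over all genes 5.51% were then higher and 8.65% lower without library 1, and 11.4% each way without library 2. In the same comparison the mitotic kinases Aurka and Plk1, which act in cilium disassembly as well as in mitosis, were higher (5.35 ± 0.65 and 3.72 ± 0.55).

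Neuroblast-like against transit-amplifying-like cells, a comparison that shares the latter sums, gave 1 gene higher and 2 lower, against 10.4% and 12.6% of all genes. The 15 neuroblast markers summed to 17475 and 17512 CPM in neuroblast-like and 8414 and 7219 CPM in transit-amplifying-like cells. Clusters 3 and 8, outside both classes, held 16617 and 14875 CPM and 16198 and 13769 CPM of them. How many cells of the dividing class were neuroblasts was not tested. Kifap3 was higher, with 163 and 205 CPM against 87.4 and 104 CPM (0.97 ± 0.24, edgeR adjusted p = 4.69e-04). B9d1 was lower, with 7.40 and 11.4 CPM against 66.6 and 50.4 CPM (-2.32 ± 0.56, edgeR adjusted p = 3.65e-04). Ift57 was lower, with 7.40 and 16.0 CPM against 70.8 and 36.7 CPM (-1.69 ± 0.55, edgeR adjusted p = 0.0126). Values of the groups did not overlap for any of these 3, with 2 libraries on each side. Leaving out either tdTomato-negative library left none of these genes called. Over all genes 0.0686% were then higher and 1.17% lower without library 1, and 0.985% and 1.61% without library 2. Kifap3 was not called with DESeq2 or with no count filter, which called 6.55% and 2.07% of the genes they tested higher. Ift57 was not called with DESeq2 either (adjusted p = 0.0662), which called 6.90% lower, and B9d1 was.

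The sort gate was the other contrast of the design. Within ependymal-like cells, tdTomato-positive and tdTomato-negative libraries were close: of 32 genes tested, 0 were called higher and 0 lower, against 0.171% and 0.122% of 4098 genes. DESeq2 called 0 as well, and the fit with no count filter 0 of 43, against 0.0562% higher and 0.0422% lower of 14231 genes. Ift74 (-0.87 ± 0.41, unadjusted p = 0.0356 by edgeR) and Ttc26 (1.33 ± 0.65, unadjusted p = 0.0418 by edgeR) were the 2 genes with an unadjusted p under 0.05. The test set 1 library against 2, with 1 residual degree of freedom, and the tdTomato-negative sums held 12 and 45 cells, so a miss does not show that the gates were alike. For Ift88, for example, the approximate 95% interval of the log2 difference ran from -0.41 to 1.44, and for Kif3a from -1.39 to 0.53. A test of whether the ependymal to astrocyte difference itself depended on the gate called 0 of 2150 genes and 0 of 27 of these genes at an adjusted p under 0.05 (edgeR, lowest adjusted p 0.731, 3 with an unadjusted p under 0.05). It rested on 16 astrocyte-like cells in the single tdTomato-positive library, and the standard errors of these genes ran from 0.68 to 6.98 on the log2 scale with a median of 2.02, so it could have missed large differences.

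**Figure D5:**
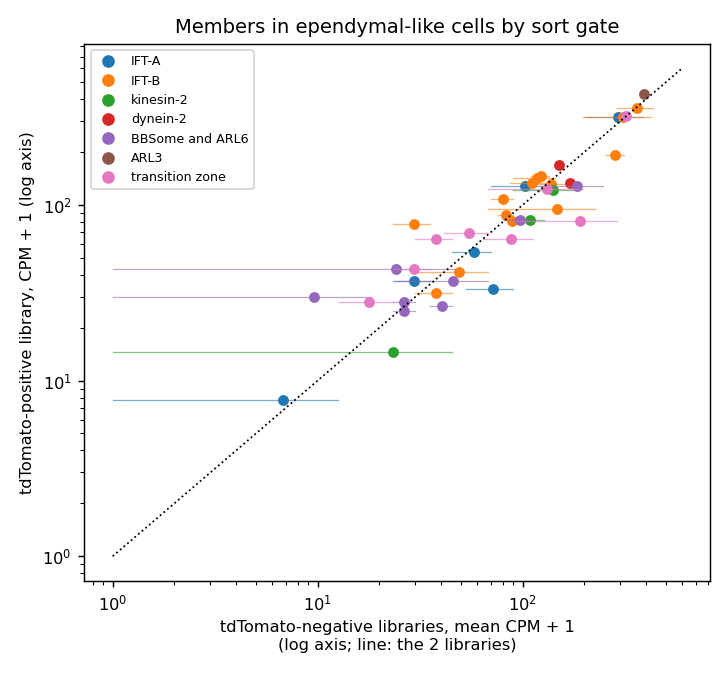
Level of 42 of the 43 genes in tdTomato-positive ependymal-like cells (y axis) against the mean of both tdTomato-negative libraries (x axis), both as CPM + 1 on log axes; horizontal lines join these 2 libraries and the dotted line marks equal values. Most points lie near the dotted line, and the lines are longest for genes at 0 in 1 tdTomato-negative library: Bbs7, Bbs9 and Ttc21b in library 1 and Kif3b in library 2.

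Over all kept cells 35 of 42 genes were higher in the tdTomato-positive library and 0 lower, against 22.9% and 19.0% of 10944 genes. The 7 not called were Kif3a (-0.48 ± 0.34), Kifap3 (-0.29 ± 0.33), Kif3b, Ift52, Ift46, Ift74 and Bbs4. Ependymal-like cells made up 70.2% of that library and 4.69% and 4.01% of the others, so cell makeup and level per cell cannot be told apart in these sums. This test too set 1 library against 2, with 1 residual degree of freedom, and DESeq2 called 17 of the 42, against 10.9% of the same 10944 genes.

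On the genome the 43 genes lay on 17 chromosomes (GENCODE M21, GRCm38), and none overlapped another counted gene on the same strand. A counted gene lay on the opposite strand for Ift140, Ttc21b, Ift57, Ift74, Ift81, Ift88 (with Ift88os), Bbs4, Tmem67, Tctn1 and Cep290, among others. Whether the authors counted by strand is not given in the sources used here, so for these genes reads of the partner could not be set apart.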

How the data were processed

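Single-cell 3' libraries (10x Chromium v2 chemistry) of sorted SVZ cells were counted in 3 samples. The values are the counts as the authors deposited them: whole UMIs of each gene in each barcode, with no normalisation. The submitters' processing notes name Cell Ranger, STAR, Seurat 1.4.0.15 and the builds mm10 and GRCm38.p5. Not given in the sources used here are the strand setting, the order of tools and how barcodes were chosen.

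From these counts, barcodes with 300 or more genes and no more than 25% mitochondrial UMIs were kept. Cells of all libraries were clustered together (scanpy 1.11.5, 1000 variable genes, 20 principal components, Leiden resolution 1.0, seed 1) on even-numbered Ensembl genes and 149 markers, without the 44 genes or the other lists. A cluster took the name of the marker list leading its 10 top genes if at least 3 of those markers were 2-fold higher and no other list had a larger share so; doublets were not removed. Counts were summed per library and class (at least 10 cells) and tested with edgeR 4.0.16 (R 4.3.3; quasi-likelihood, TMM, filterByExpr, Benjamini-Hochberg at 0.05): 20 sums with library as block and 9 residual degrees of freedom for classes, 3 sums for gates. Classes of 1 library are paired by that block. DESeq2 1.42.0 was an alternative. Standard errors are approximate (log2 fold change divided by the root of F). Zero shares carry the limit of 3 counts.

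The genes and lists were chosen with earlier results of these data known. Genes are described by role, and 1 of the 43 enters the counts and sums but is not reported singly here; per-library values are given for up to 3 per role with the most UMIs, and for others where a result turned on them, chosen after their values were seen; of each other list at most 4 called genes are named.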

Additional observations from a re-analysis of the deposited data

How the results depend on the processing

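Depth limits most of what is said of single genes: 17 of the 43 did not pass the count filter in the comparisons of classes. No named gene's fold changed sign while called. Against the singly ciliated classes, the count of 23 genes higher lay between 21 and 30 over all other settings and between 13 and 25 when a library was left out; against astrocyte-like cells, 24 lay between 9 and 22 on leaving out a library. In neuroblast-like against transit-amplifying-like cells, the 1 gene higher became 0 with DESeq2, no count filter, no replicate block or odd-digit clustering, 2 with RLE scaling, Scrublet calls removed, all genes tested, clustering without ependymal markers or the stricter cell filter, 4 at resolution 0.5 and 3 at resolution 2.0, and 0 to 2 on leaving out a library. The 2 lower became 1 with DESeq2, 4 with Scrublet calls removed, odd-digit clustering, resolution 0.5 or the stricter filter, 5 without ependymal markers, and 0 to 2 on leaving out a library. In transit-amplifying-like against astrocyte-like cells, the 2 higher became 1 with the stricter filter and the 4 lower became 1 with no count filter, 2 with no replicate block and 3 with DESeq2 (Ift27 not called), Scrublet calls removed or the stricter filter; leaving out a library gave 0 to 2 and 0 to 4. Over all cells of the gates, 35 became 17 with DESeq2. Calls over all genes moved too. Against the singly ciliated classes, 779 of 2825 genes were higher, 689 of 2439 at resolution 2.0 and 1062 of 8502 with no count filter. For neuroblast-like against transit-amplifying-like cells, 294 of 2825 genes were higher and 357 lower. At resolution 0.5 these were 427 and 433 of 3020, and at resolution 2.0 they were 313 and 340 of 2439. They were 232 and 323 of 3410 with odd-digit clustering, and 333 and 428 of 3082 with clustering without ependymal markers. With Scrublet calls removed they were 378 and 421 of 3086, and with the stricter filter 465 and 550 of 3677. For transit-amplifying-like against astrocyte-like cells, 792 and 721 became 805 and 887 with that filter. They became 538 and 651 with DESeq2, and 664 and 642 with no replicate block. The neuroblast-like class held 396 cells at resolution 0.5 and 213 in the main clustering. The cause of these moves was not tested. No paired analysis was possible for the gates because they share fewer than 2 replicate numbers, and leaving out a library there leaves no residual degree of freedom. For the ependymal-like comparisons, dropping the library block gave 24 and 23 genes higher, against 823 and 636 of all 2825 genes.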

Other observations

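Barcodes left out by the filter on genes and mitochondrial share numbered 62, 3 and 6 for tdTomato-positive cells and for libraries 1 and 2 of tdTomato-negative cells. Summed over these, the 43 genes stood at 2720, 3466 and 2851 CPM, between the sums of ependymal-like cells and those of the singly ciliated classes. Their class is not known, and they entered no comparison.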
